A study of Arabidopsis thaliana with 6 samples.

Results

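BZIP60, UBC32 and DER1 are Arabidopsis thaliana genes of the endoplasmic reticulum (ER) stress response. They were described here in suspension-cultured cells grown with and without isoxaben, a herbicide that blocks cellulose synthesis. They were found by their gene symbols in the array's probe-to-gene table, using only probe sets assigned to exactly 1 gene, which gave 3 of 13350 genes so measured and 4 of 22810 probe sets. BZIP60 (AT1G42990) and UBC32 (AT3G17000) had 1 probe set each, and DER1 (AT4G29330) had a bright and a dim one. The genes were picked for their difference between isoxaben and control arrays, so that difference is a description and was not tested.

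The study compared 3 control arrays with 3 arrays of cells whose treatment label gives 0.1 mM isoxaben, all of the Affymetrix ATH1 type. Every culture grew in Murashige and Skoog medium with 30 g/L sucrose, 0.5 mg/L of the auxin naphthaleneacetic acid and 0.05 mg/L kinetin. The labels name no ecotype, culture line or length of treatment, and leave unsaid whether replicates were separate cultures. The p-values below therefore cover the spread among these arrays alone, and that spread may be technical. The titles form 2 sets, the first with 1 array of each group and the second with 2 of each.

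Proteins that enter the secretory pathway fold in the ER with the help of chaperones, and a surplus of misfolded protein starts the unfolded protein response. In plants, the membrane kinase and ribonuclease IRE1 splices BZIP60 mRNA, so that it encodes a transcription factor free to enter the nucleus, while BZIP28 is a membrane-bound factor released by proteolysis. Proteins that fail to fold are pulled out of the ER, tagged with ubiquitin and degraded, which is called ER-associated degradation. UBC32 is a ubiquitin-conjugating enzyme (E2) anchored in the ER membrane, and DER1 belongs to the derlins, membrane proteins named after yeast Der1, which acts in the export step. Transcripts of these genes are known to rise when folding in the ER is blocked.

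Some arrays stood apart before any gene was compared. Control replicate 1, from the first title set, had 7023 outlier cells in the scanner's record, against 160 to 613 on the other arrays, and the lowest background, 67.11 against 84.53 to 113.18. Isoxaben replicate 1 carries the code DCB in its source name, while its title and treatment label give isoxaben. Results are therefore given by title set as well, and leaving out either array kept the direction of BZIP60, UBC32 and DER1. The labels call the material a cell suspension, for which no defining marker gene was fixed. Of 16 markers of differentiated cell types, 2 had a probe set that could be named, the root hair expansin EXPA7 (11 to 18.4) and the guard cell factor FMA (10.5 to 42.1), and neither passed the filter on dim probe sets, which lay at a signal of 22.1.

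BZIP60, the transcription factor of the IRE1 branch, was bright in control cells and much dimmer with isoxaben. Its signal, a linear scaled intensity, was 1346.5, 1261.5 and 1181 on the control arrays and 357.8, 337.6 and 328.8 on the isoxaben arrays. Every isoxaben value lay far below every control value, and the lowest control was 3.30 times the highest isoxaben value. The means were 1263 ± 82.8 (SD, n = 3) and 341.4 ± 14.9 (SD, n = 3), so that isoxaben cells had 27.0% of the control signal. The probe set's position relative to the spliced segment was not used here, so the spliced and unspliced forms were not told apart. In these cultures a lower signal from fewer cells with the transcript and one from less RNA per cell cannot be told apart, which holds for each gene below.

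UBC32, the ER-anchored E2, showed a similar difference. The control arrays gave 853.1, 1023.8 and 1040.7 and the isoxaben arrays 267.8, 282.5 and 251.9. The groups did not overlap, with the lowest control at 3.02 times the highest isoxaben value, and control replicate 1 was the lowest control here although it was the highest for BZIP60. The mean was 972.5 ± 104 (SD, n = 3) in control and 267.4 ± 15.3 (SD, n = 3) in isoxaben cells, or 27.5% of control.

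DER1, the derlin, was lower with isoxaben on its bright probe set. The signals were 610.5, 692.2 and 640.1 in control and 165.8, 207.5 and 204.8 in isoxaben cells. The groups were again apart, by a factor of 2.94 between the nearest arrays, and the first title set held the lowest array of each group. The means were 647.6 ± 41.4 (SD, n = 3) and 192.7 ± 23.3 (SD, n = 3), or 29.8% of control. The dim DER1 probe set disagreed with the bright one: it read 7, 2.9 and 10 in control and 7.3, 5.3 and 7.1 in isoxaben cells. These signals overlapped, and all of them lay below the filter signal of 22.1, so the dim probe set was not tested and gives no information on a difference.

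**Figure D1:**
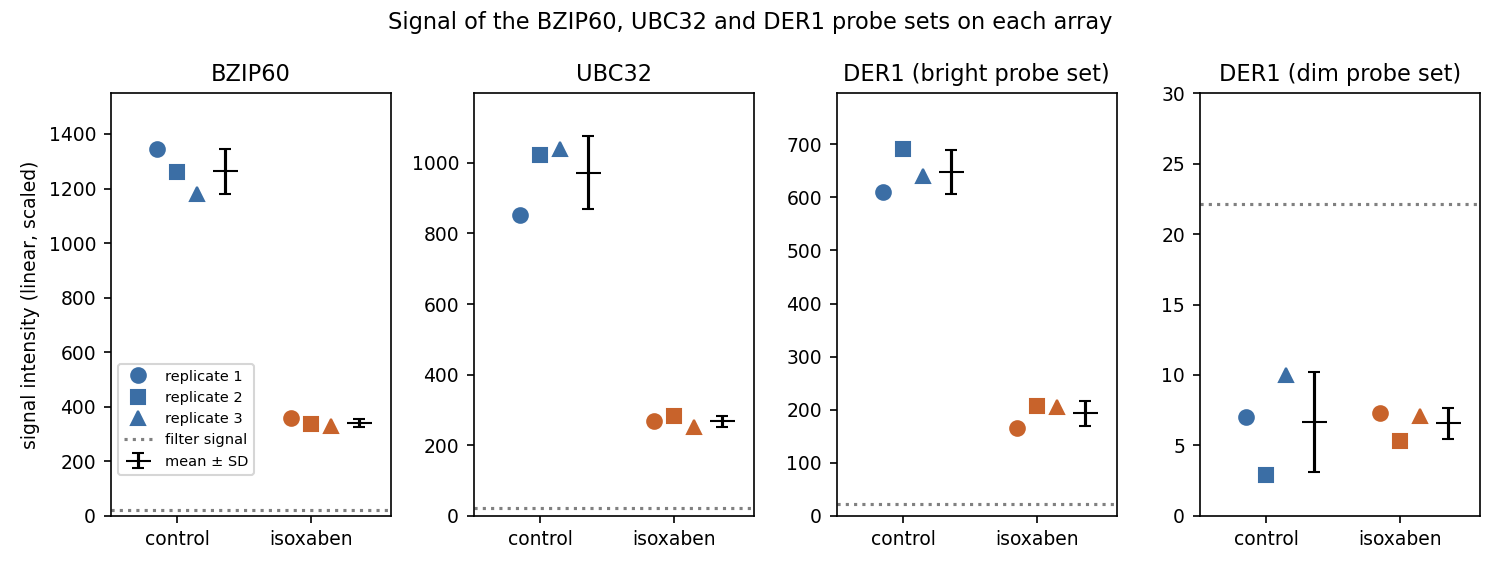
Linear signal intensity (y axes start at 0 and differ between panels) of each member probe set on the 3 control and 3 isoxaben arrays, with symbols for the replicates, the mean ± SD beside them and the filter signal of 22.1 as a dotted line. The groups are apart for BZIP60, UBC32 and the bright DER1 probe set, and overlap below the filter signal for the dim one.

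On the log2(signal + 16) scale used for all fits, the difference of isoxaben minus control was -1.84 ± 0.10 (SE) for BZIP60, -1.80 ± 0.11 for UBC32 and -1.67 ± 0.12 for DER1. No error was computed for the gaps between these 3 differences, and their order was not the same in both title sets. Within the first set, where a single array per group leaves no replicate check, they were -1.87 for BZIP60, -1.61 for UBC32 and -1.78 for DER1. Within the second set they were -1.82, -1.89 and -1.62. UBC32 thus had the smallest difference of the 3 in the first set and the largest in the second. With a pseudocount of 64 in place of 16 the differences were -1.71, -1.64 and -1.47, and the direction was the same.

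Large differences were common in this comparison. Of 13648 tested probe sets, 27.2% were called lower and 29.4% higher with isoxaben (limma, Benjamini-Hochberg adjusted p under 0.05), and the groups did not overlap, with isoxaben lower, for 30.4%. That 3 genes picked for being lower were past the threshold and without overlap is therefore a matter of how they were picked. Differences as low as theirs were less frequent: 350 tested probe sets (2.56%) had a log2 difference at or below that of BZIP60, 375 (2.75%) at or below that of UBC32 and 458 (3.36%) at or below that of DER1. The median log2 difference over all tested probe sets was 0.00824, and the median SE was 0.142.

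**Figure D2:**
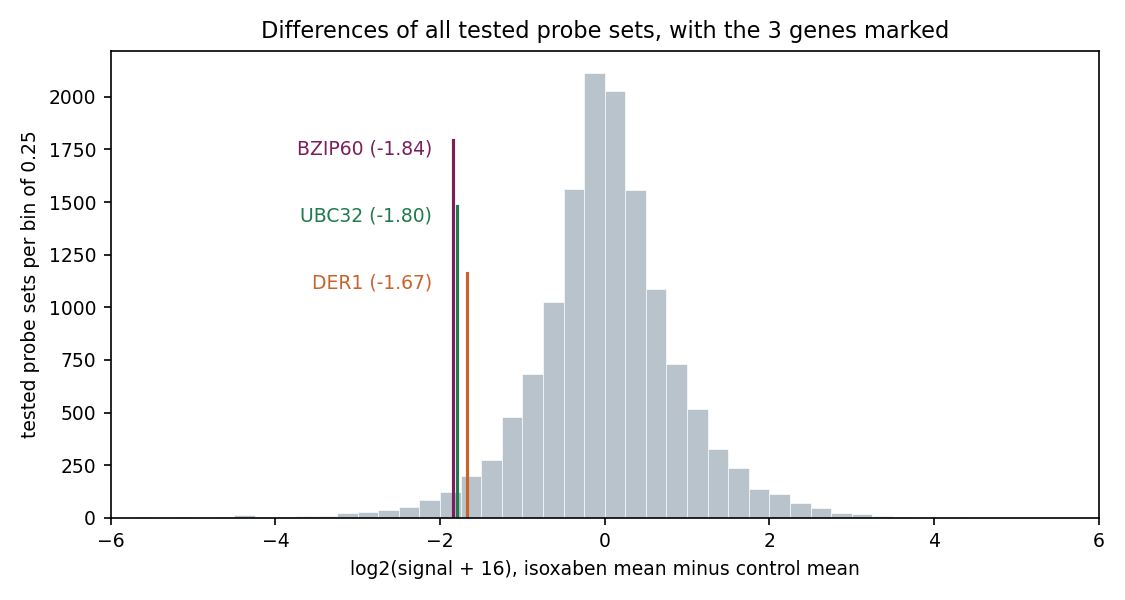
Number of tested probe sets (y axis) per bin of log2 difference, isoxaben minus control (x axis, on the log2(signal + 16) scale), with vertical lines of arbitrary height at BZIP60, UBC32 and DER1. The lines lie at -1.84, -1.80 and -1.67, in the lower tail of a distribution centred near 0.

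The other genes of ER protein folding and degradation were taken from 5 lists drawn up by locus, with earlier results of these data known. The shares and medians given for these lists, together or singly, are therefore descriptions. The lists held 75 loci besides the 3 described above. Only 17 of these loci had a probe set of exactly 1 gene, and 16 passed the filter. With isoxaben, 9 of the 16 fell, 2 rose and 5 did not pass the threshold, so 56.2% were called lower where 27.2% of all tested probe sets were, and 12.5% were called higher against 29.4%. All 16 also passed a stricter filter at the 60th percentile, where they again gave 9 lower and 2 higher. Of the 9099 probe sets past that filter, 2974 were lower and 2952 higher. These are larger shares than over all tested probe sets. The median log2 difference of the 16 was -0.54, against 0.00824 over all tested probe sets. It was -0.54 in the first title set and -0.60 in the second, where 9 fell and 2 rose (of all probe sets tested within that set, 30.9% were lower and 35.3% higher). The same 9 and 2 counts were found without control replicate 1 and without isoxaben replicate 1. Including the locus under the filter, AT1G73570 (14.5 to 27.7 on all arrays), the median was -0.46. Of the tested loci, 11 carry a gene symbol in the annotation (5 lower, 2 higher), and 5 have only a locus name (4 lower), so their place on a list rests on background knowledge of the locus. The binding protein chaperones and IRE1 were not analysed here.

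Of 4 other tested stress sensors and factors, 1 fell, 1 rose and 2 did not pass. That is 25% lower, near the 27.2% of all tested probe sets. BZIP28, the membrane-bound factor of the other branch, was the gene that fell. Its signal was 518.4, 643.1 and 569.7 in control and 249.1, 275.9 and 263.6 in isoxaben cells. The groups were apart, and the log2 difference was -1.08 ± 0.11 (SE; limma adjusted p = 2.29e-05), beside -1.84 for BZIP60 on the same scale. S1P, the site-1 protease that cleaves BZIP28, went the other way, from 184.8, 151.6 and 125.8 to 247.3, 219.9 and 220.5 (0.54 ± 0.14, limma adjusted p = 0.00801). All isoxaben values of S1P lay above all control values. BZIP17, a relative of BZIP28 known for its part in the salt stress response, did not pass (-0.37 ± 0.16, limma adjusted p = 0.0788). Its difference was -0.87 in the first title set and -0.12 in the second, and its control value in the first set (261.4) was well above those of the second (189.7 and 175.4). With arrays centred on their medians BZIP17 did pass (-0.42, limma adjusted p = 0.0402), and without control replicate 1 its difference was -0.21 (0.185). The locus AT4G20310 changed by 0.08 ± 0.15 and did not pass.

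Among ER chaperones and lectins 5 of 16 loci were tested. Of these, 3 fell (60%, beside 27.2% of all tested probe sets) and 1 rose (20%, beside 29.4%). ATERDJ3B, a DnaJ-type co-chaperone of the ER lumen, went from 1362.4, 1448.2 and 1444.9 to 721.7, 763.3 and 794.8. Its groups were well separated, with a log2 difference of -0.89 ± 0.09 (limma adjusted p = 2.04e-05). AT5G07340 fell by more, from a mean of 521.2 ± 36.4 (SD, n = 3) to 212.7 ± 34.4 (SD, n = 3), a log2 difference of -1.24 ± 0.13. The paired DnaJ-type proteins ATERDJ2A and ATERDJ2B, counterparts of yeast Sec63, differed in direction. ATERDJ2B fell by 0.46 on the log2 scale, with 121.2, 130.7 and 130.8 in control and 89.6, 93.4 and 82.5 in isoxaben cells. ATERDJ2A rose by 0.31 ± 0.10, from 180.1, 169.6 and 166.5 to 208.1, 225.2 and 220.1 (limma adjusted p = 0.0243). That rise no longer passed without control replicate 2 (adjusted p = 0.0732) or 3 (0.0930), without isoxaben replicate 2 (0.0931) or 3 (0.0769), or with arrays centred on their medians (0.130). It passed within the second title set (limma adjusted p = 0.00217), with title set as a block (0.00783) and with array weights (0.000283). CRT1b, a calreticulin that binds the sugar chains of folding glycoproteins, had means of 903.4 ± 127 and 921.6 ± 19.0 (SD, n = 3 each) and did not pass. PDIL5-1 was the only 1 of 12 listed loci for disulfide isomerases and ER oxidases with a probe set assigned to exactly 1 gene. Its difference of 0.25 ± 0.13 missed the threshold (limma adjusted p = 0.120), and the call depended on the arrays and the fit. It passed with title set as a block (0.0345), with array weights (0.00770) and without control replicate 2 (0.36, limma adjusted p = 0.0482), while without control replicate 1 the difference was 0.16 (0.251).

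In ER-associated degradation, where UBC32 and DER1 belong, 5 of 22 other loci had a probe set and 4 were tested. Of these, 3 fell (75%, beside 27.2% of all tested probe sets) and none rose (beside 29.4%). DER2.1, a second derlin, gave 311.8, 302.9 and 271.3 in control and 106.3, 135.1 and 114.2 in isoxaben cells. Its log2 difference was -1.21 ± 0.12 (limma adjusted p = 1.84e-05), and the groups did not overlap. DER2.2, the third derlin, had 111.9, 121.5 and 117.7 in control and 83.3, 110.1 and 88.3 in isoxaben cells. The groups did not overlap for DER2.2 either, but the difference of -0.28 ± 0.13 missed the threshold (limma adjusted p = 0.0806). It passed with title set as a block (0.0399) and without isoxaben replicate 2 (-0.39, limma adjusted p = 0.0399). Derlins are related in sequence, and binding of one derlin's RNA to another's probes was not tested. OS9, a lectin that picks out misfolded glycoproteins, went from 392, 592.8 and 482.4 to 222.3, 219.3 and 215.1. The control arrays of OS9 spread widely and all lay above the isoxaben arrays (-1.09 ± 0.14, limma adjusted p = 0.000124), with a log2 difference of -0.78 in the first title set and -1.24 in the second. AT4G29960 fell from 172.2 ± 38.4 to 87.5 ± 9.14 (SD, n = 3 each), a log2 difference of -0.84 ± 0.16.

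Of the glycosylation and translocation list, 2 of 12 loci were measured, and both fell, where 27.2% of all tested probe sets did. AT1G29310 had 325.7, 340.2 and 306.4 in control and 57.5, 68.8 and 60 in isoxaben cells. Its log2 difference of -2.12 ± 0.11 (limma adjusted p = 3.75e-07) was the lowest among the tested genes of the 5 lists, BZIP60, UBC32 and DER1 included. AT2G34250 fell from 869.8 ± 19.3 to 562.2 ± 74.2 (SD, n = 3 each; -0.62 ± 0.11).

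**Figure D3:**
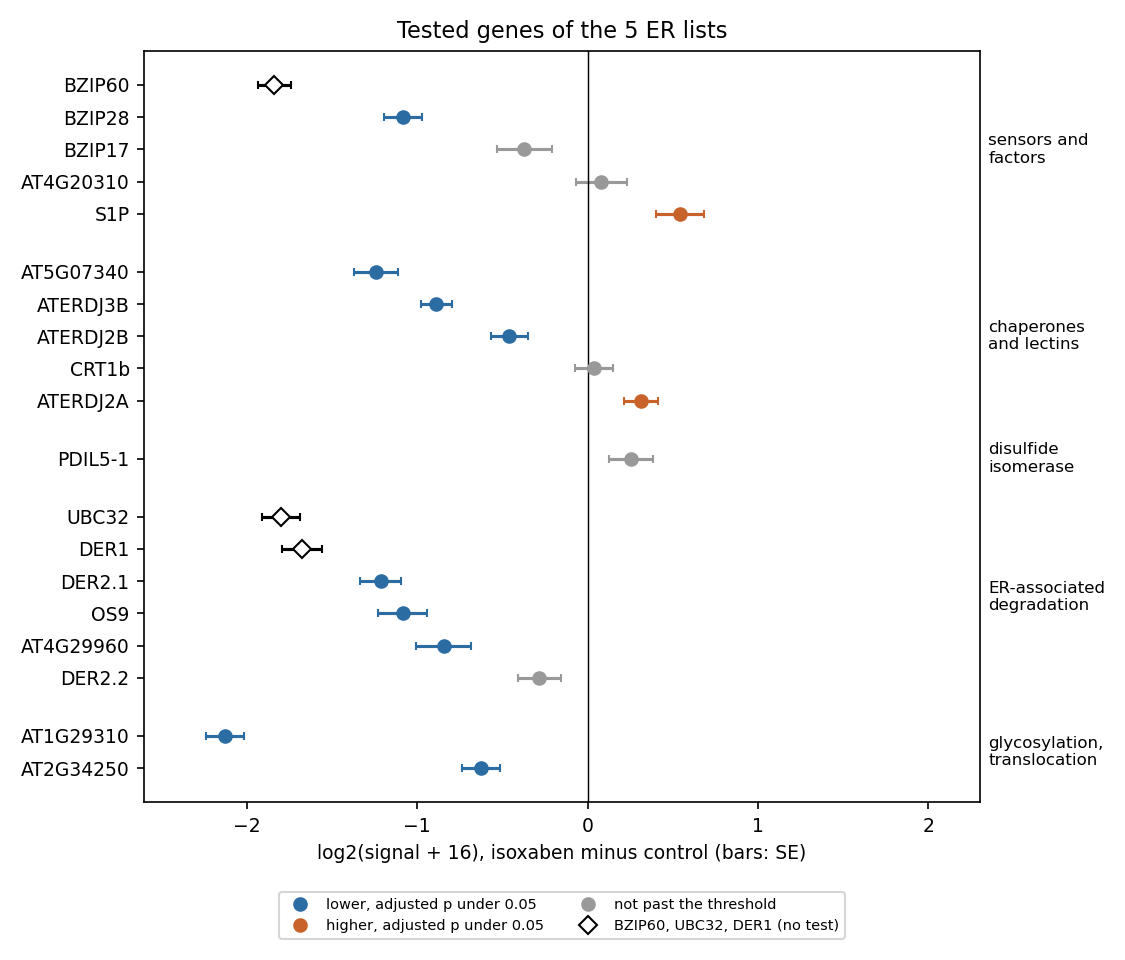
Log2 difference, isoxaben minus control (x axis, on the log2(signal + 16) scale), of each tested gene of the 5 ER lists (y axis, grouped by role), with bars for the SE of the limma fit. BZIP60, UBC32 and DER1 are open diamonds (no test), blue genes fell (9), orange genes rose (2) and grey genes did not pass the threshold (5).

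The cytosolic heat shock list, which covers protein folding outside the ER, had 2 of 17 loci measured. Hsp70-2, a cytosolic chaperone, fell from 523.1, 367.3 and 337 to 317.3, 247.2 and 231.2 (-0.58 ± 0.17, limma adjusted p = 0.0167). Within each group the first title set was the highest, and the fall no longer passed without isoxaben replicate 2 (adjusted p = 0.0635) or 3 (0.0727). It passed within the second title set (limma adjusted p = 0.000296) and with title set as a block (0.000157). AT3G09440 had 872.5, 587.3 and 574.6 in control and 815.4, 531.7 and 558 in isoxaben cells, which overlapped (-0.09 ± 0.20).

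BZIP60 was next set among the other bZIP transcription factors, chosen by gene names of the form bZIP with a number, which fell more often than they rose. Of 45 besides BZIP60, 21 had a probe set, and 10 of these stayed under the filter. Of the 11 tested, 6 fell, 1 rose and 4 did not pass, which is 54.5% lower beside 27.2% of all tested probe sets, with a median log2 difference of -0.38. Over all 21 with a probe set the median was -0.03. BZIP28 had the lowest difference of the tested ones. AT2G21230, annotated as bZIP30, followed with 237.9, 281.5 and 277.8 in control and 149.7, 130.3 and 124 in isoxaben cells (-0.90 ± 0.12, limma adjusted p = 0.000123). EEL, a bZIP factor of seed maturation, fell from 54.5 ± 20.4 to 23.1 ± 7.61 (SD, n = 3 each; -0.83 ± 0.22), near the filter signal. AT2G40620, annotated as bZIP18, fell as well (-0.65 ± 0.14), and its isoxaben signals (27.9, 35.3 and 28.3) also lay near the filter. Both differences depend on the pseudocount. With 1 and 64 they were -1.19 and -0.44 for EEL, and -0.89 and -0.36 for AT2G40620. The rise was that of bZIP44, from 26.2 ± 4.72 to 49.1 ± 4.05 (SD, n = 3 each; 0.63 ± 0.14), chosen after its values were seen. Its control signals lay near the filter, so the difference depends on the pseudocount (0.89 with 1 and 0.33 with 64), and with the 60th percentile filter it was not tested. BZIP53 (0.23 ± 0.15) did not pass over all arrays (limma adjusted p = 0.202), but passed within the second title set (0.0278), with title set as a block (0.0177) and with the replicate block (0.0395). Without control replicate 1 the difference of BZIP53 was 0.10 (limma adjusted p = 0.486). The difference of BZIP60 was the lowest among tested genes of this family, as it was picked to be low.

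**Figure D4:**
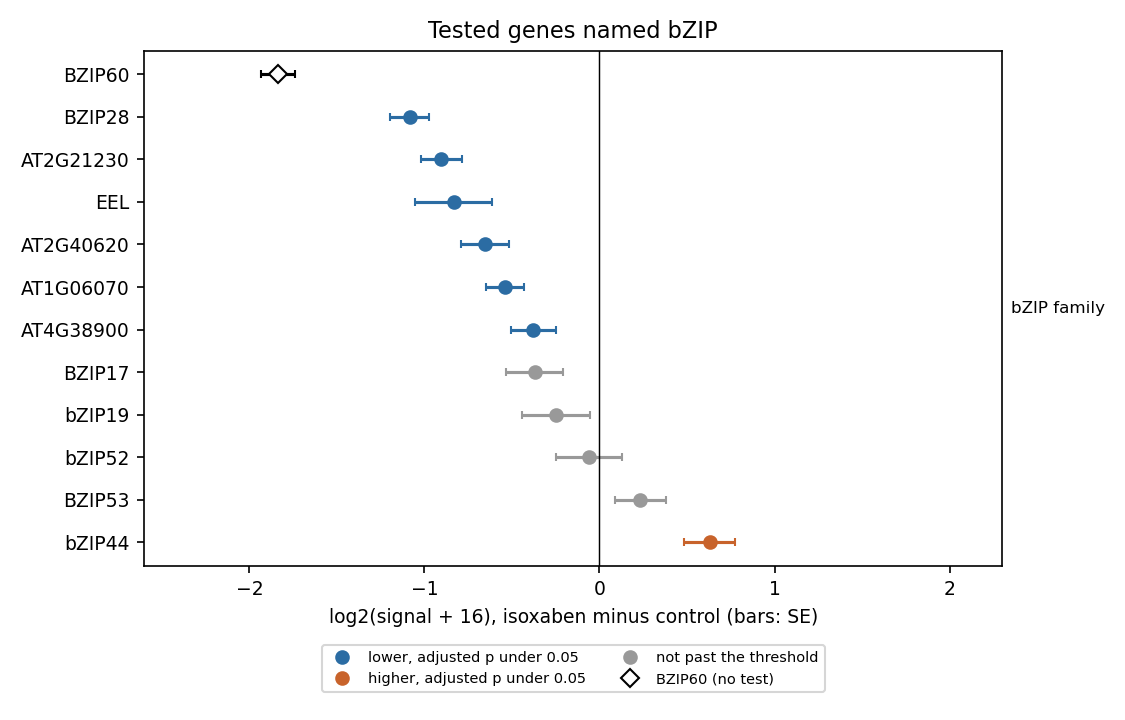
Log2 difference, isoxaben minus control (x axis, on the log2(signal + 16) scale), of the tested genes named bZIP (y axis), with bars for the SE of the limma fit. BZIP60 (-1.84) is an open diamond (no test), the 6 other genes that fell are in blue, and bZIP44, which rose, is in orange.

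The genes whose signals were most like each of the 3 were ranked by Pearson correlation over the 6 arrays on the log2(signal + 16) scale, among tested genes with a symbol. All such correlations are set mainly by the gap between the groups, since 482 other tested probe sets exceeded 0.99 with BZIP60, 543 with UBC32 and 421 with DER1, and they are given as a description. Between the 3 genes themselves the correlation was 0.987 for BZIP60 and UBC32, 0.984 for BZIP60 and DER1 and 0.99 for UBC32 and DER1. The highest with BZIP60 were GAT1_2.1, a glutamine amidotransferase-like protein (0.999), CDI, annotated as cadmium-induced (0.998), and PRA1.G2, a prenylated RAB acceptor (0.998). CDI signals were 423.1, 439.9 and 397.4 in control and 91.2, 87.8 and 91.5 in isoxaben cells, and those of PRA1.G2 were 272.4, 258 and 237.8 and then 56.4, 59.4 and 60.1. GAT1_2.1 dropped much further than BZIP60, from 237.8 ± 14 to 3.40 ± 0.265 (SD, n = 3 each), so a high correlation does not mean a difference of the same size.

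For UBC32 the most alike were CYP71B23, a cytochrome P450 (1.000 to 3 decimals), SFP1 (0.999) and TRM26, a TON1 recruiting motif protein (0.998). CYP71B23 had 417.4, 533.1 and 508.5 in control and 91.5, 97.4 and 85.8 in isoxaben cells, with the lowest control in the first title set as for UBC32. For DER1 they were LigB (0.999), the quinone oxidoreductase NQR (0.998) and ATERDJ3B (0.998), the ER co-chaperone described above. LigB had 245.7, 274.6 and 253.4 in control and 61.5, 76.1 and 70.3 in isoxaben cells. Both groups of LigB were lowest in the first title set, like those of DER1. Such shared orders of arrays are favoured by choosing genes through their correlation over these arrays, and are no separate likeness. NQR had means of 337.9 ± 16.2 and 133.5 ± 10.0 (SD, n = 3 each).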

How the data were processed

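RNA was measured on 6 Affymetrix ATH1 arrays (3 control, 3 isoxaben). The deposited table holds 1 linear signal intensity per probe set and array, already scaled by the authors to a trimmed mean (2% off each end) of 100.006 to 100.008, with medians of 31.6 to 42.0. How probes were summarised is not stated by the sources used here. Arrays carry no depth, so their number limits the precision. At most 1.44% of values were equal between arrays, so none was a copy of another. Each counted as 1 sample, though this does not show that they came from separate cultures. The labels number replicates 2 and 3, and the unnumbered pair was called 1. The 64 control probe sets and probe sets with a mean log2(signal + 16) under the 40th percentile were left out. Fold changes on this scale understate the change of dim genes. The 2 groups were compared in R 4.3.3 with limma 3.58.1 (intensity trend, two-sided, Benjamini-Hochberg over 13648 probe sets, threshold 0.05), after a check on simulated data. Names came from the platform annotation, updated through gene identifiers with RefSeq's TAIR10.1 table (13436 probe sets updated). In all, 13513 probe sets had 1 gene, 503 several and 8730 none named. Where a gene had several probe sets, the brightest was used. The members and lists were chosen with earlier results of these data known. Named genes were, per list, up to 4 past the threshold by size of difference and up to 2 not past it by signal, and the 3 most correlated genes per member. A gene family that this rule also covers is not reported here. Alternatives varied normalization, pseudocount, filter, variance prior, array weights, blocks, title set and arrays left out.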

Additional observations from a re-analysis of the deposited data

How the results depend on the processing

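BZIP60, UBC32 and DER1 were lower with isoxaben under each of the 14 alternatives computed for them. They were picked for being lower on these same arrays, so their shared direction is a description. The replicate block and the title set block return the main differences unchanged by construction. Leaving out 1 array gave -1.89 to -1.79 for BZIP60, -1.89 to -1.75 for UBC32 and -1.73 to -1.58 for DER1. Differences moved by more than the spread between replicates with quantile normalization for BZIP60 (-1.96) and with a pseudocount of 64 for all 3 (-1.71, -1.64 and -1.47), since a larger pseudocount shrinks differences by its construction. Of the other ER genes, 9 or 10 were lower under each alternative. The count of higher ones was 1 with median centring, 1 to 2 with an array left out, and 2 or 3 otherwise. Over all probe sets, the replicate block gave 4250 higher and 3913 lower, against 4011 and 3715 without it, and the ER counts under this block stayed at 2 and 9. Same-numbered arrays deviated together with correlations of 0.207, 0.110 and 0.128. Differently numbered arrays of the second title set had much the same values, 0.118 and 0.101. Pairs of arrays from different title sets had correlations of -0.185 to -0.138. Deviations are from each group's own mean, so these negative values go with the positive ones and are no separate finding. The source of the shared deviations was not tested. Directions turned for genes that had not passed: CRT1b with quantile normalization (-0.12), with median centring (-0.012) and without control replicate 2, AT4G20310 without control replicate 2, and AT3G09440 without control replicate 1 (0.10) or isoxaben replicate 2 (0.019). With 1 array left out their values ran from -0.048 to 0.14 for CRT1b, -0.065 to 0.19 for AT4G20310 and -0.28 to 0.10 for AT3G09440. The cause was not tested. Over the tested genes named besides the 3, 500 comparisons with an alternative kept direction and call, 9 gained the call and 7 lost it. Signals below the filter, such as the dim DER1 probe set, set no limit on a difference.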
